A study of Homo sapiens with 56 samples.

Results

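PEO4 cells given 4-hydroxytamoxifen (4OHT) alone for 3 h were compared with PEO4 cells given ethanol vehicle for 3 h, on 4 arrays each. These 8 arrays, chosen by their titles, are part of 56 Affymetrix expression arrays of PEO4 and PEO1, 28 per line. Both are established cell lines from high-grade serous ovarian cancer. Cells of every group, vehicle included, were first starved of hormone for 3 days, in medium without phenol red and with charcoal-stripped serum. PEO4 cells received 1 µM 4OHT, 1 µM fulvestrant (called ICI here, as in the labels), 1 nM estradiol (E2), either antagonist with E2, or vehicle, and 0 h cells were taken untreated. PEO1 cells received the same treatments, and the PEO1 groups compared here are those given 1 µM 4OHT or vehicle. The other PEO1 arrays enter the fits only through the estimate of the spread. The PEO4 titles shorten the drug to Tam, a name that the design text gives to 4-hydroxytamoxifen. The labels do not say whether the 4 replicates were separate cultures, so p-values measure only the spread between these arrays.

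4OHT is an active metabolite of tamoxifen and binds the estrogen receptor in place of estradiol. The receptor bound to 4OHT keeps its place on DNA but folds so that the coactivator groove is covered, and whether a gene is then blocked, untouched or partly switched on depends on the gene and the tissue. Fulvestrant also fills the pocket, but its long side chain destabilises the receptor, and it is known as a full antagonist. Immediate early genes are those that cells switch on within minutes to hours of a growth or stress signal without making new protein first, among them the FOS, EGR and NR4A transcription factors. The dual-specificity phosphatases that switch MAP kinases off are made in the same wave.

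Values are log2 expression levels after the authors' normalization, so a difference of 1 is a doubling. Levels of different genes are not compared, since probes differ in brightness. A gene was called when its Benjamini-Hochberg adjusted p from limma was under 0.05 over all 11963 genes tested. Array medians lay between 7.853 and 7.864 with 4OHT and between 7.871 and 7.901 with vehicle, which is a difference of -0.027 between groups that did not overlap (exact permutation test, two-sided p = 0.0286, the smallest that 70 regroupings can give). With quantile normalization, which removes such offsets, 719 genes were called in place of 661. The gap between 3' and 5' actin control probes, a sign of RNA quality, was 0.47 to 0.65 with 4OHT and 0.24 to 0.57 with vehicle (exact permutation p = 0.543). It reached 3.41 among the 20 other PEO4 arrays, on ICI replicate 1, and was 2.28 on 0 h replicate 4 and 1.74 on 4OHT with E2 replicate 4. Markers matched an epithelial Müllerian line in part: EPCAM (13.20), KRT18 (13.60), PAX8 (11.88) and WT1 (12.74) were high in vehicle cells, while SOX17 (4.61) and MECOM (4.62) lay near the 5th percentile of genes (5.39 and 5.44). Epithelial MUC1 (7.58), ELF3 (8.55), CLDN3 (9.03) and CLDN4 (9.13) lay at percentiles 38.5, 51.4, 57.7 and 59.2. None of 12 epithelial or 10 Müllerian markers was called. The median of 12 stromal markers was 6.74 with vehicle, with THY1 at 10.79 (percentile 82.0). FN1 was called higher (0.23) and COL3A1 lower (-0.26), and both calls were lost without vehicle replicate 3. Mean levels of the 9 immune markers lay at 5.58 to 5.60 with vehicle and 5.52 to 5.70 with 4OHT.

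4OHT alone changed 661 genes (5.53% of those tested), of which 332 were higher (2.78%) and 329 lower (2.75%). These shares are the background for the list counts below. The increases were the larger changes: 59 called genes rose by at least 0.5 and 10 by at least 1, while 14 fell by at least 0.5 and 0 by at least 1. Most calls were small, with a median of 0.30 among increases and -0.29 among decreases. At an unadjusted p under 0.05 there were 2254 genes, where 598 would be counted by chance. The groups did not overlap in 604 of the called genes (91.4%). Over all genes, the 4 arrays with 4OHT lay above all 4 vehicle arrays in 8.6% and below them in 8.72%. Without vehicle replicate 2 the count was 418, and it was 1055 without the PEO4 arrays 0 h replicate 4 and ICI replicate 1, 1033 with only the 8 compared arrays in the fit and 1977 with array weights.

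**Figure D1:**
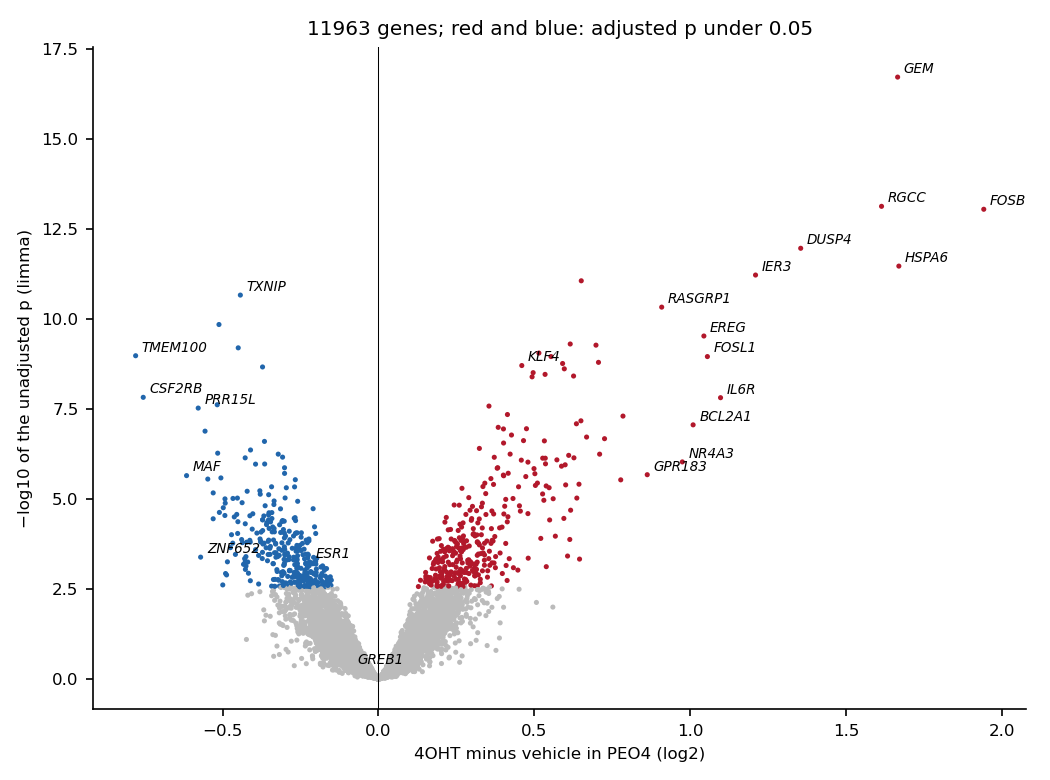
Each point is 1 of 11963 genes, with the log2 difference between 4OHT and vehicle in PEO4 on the horizontal axis and the −log10 of the unadjusted limma p on the vertical axis. Red points (332) are called higher and blue points (329) called lower; the right arm reaches 1.94 (FOSB) and the left arm -0.78 (TMEM100), and GREB1, a standard estrogen target, lies near 0.

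The highest increase was in FOSB, which encodes a partner of JUN in the AP-1 transcription factor. Its level was 7.22, 7.0, 7.12 and 6.98 on the vehicle arrays and 8.76, 8.98, 9.20 and 9.16 on the 4OHT arrays. The groups lay far apart, and the difference was 1.94 ± 0.14 (SE, limma adjusted p = 3.56e-10), a 3.84-fold rise. GEM, a small GTPase that restrains calcium channels, read 8.34, 8.47, 8.39 and 8.31 with vehicle and 10.19, 9.92, 9.98 and 10.08 with 4OHT. Its rise of 1.66 ± 0.08 had the smallest limma adjusted p of the comparison, 2.28e-13. RGCC, a regulator of cell cycle kinases, stood at 5.56, 5.24, 5.42 and 5.36 with vehicle and at 7.08, 7.02, 6.92 and 7.01 with 4OHT. These arrays were tight within each group, and RGCC rose by 1.61 ± 0.11 (limma adjusted p = 3.56e-10).

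HSPA6, an inducible heat shock protein of the HSP70 family, read 6.65, 6.78, 6.72 and 6.88 with vehicle and 8.85, 8.49, 8.32 and 8.05 with 4OHT. It rose by 1.67 ± 0.14 (limma adjusted p = 8.11e-09), with a wide spread among the 4OHT arrays. Its other probe set rose by 0.62, and both may also detect the near-identical HSPA7, so the source of this signal is uncertain. HSPA6 rose without the rest of the heat shock list: of 14 measured members it alone was called higher and HSPA1L was called lower (-0.28), with a list median of -0.01 beside 0.00 for all genes. The call of HSPA1L was lost without vehicle replicate 3, with an adjusted p of 0.0545.

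All 15 of the largest increases had every 4OHT array above every vehicle array, where 8.6% of all genes did. These 15 genes were picked by the difference between the same arrays, so that separation is no independent support. Beside those named, they were DUSP4 (1.35), IER3 (1.21), IL6R (1.10), FOSL1 (1.05), EREG (1.04), BCL2A1 (1.01), NR4A3 (0.97), RASGRP1 (0.91), GPR183 (0.86), PTX3 (0.78) and SNAI2 (0.78). They include a growth factor of the EGF family (EREG), a survival protein of the BCL2 family (BCL2A1), a receptor for interleukin 6 (IL6R), a soluble pattern recognition protein (PTX3) and a repressor of E-cadherin (SNAI2). IL6R rose on 1 probe set, while its other probe set read -0.03; with the mean of probe sets IL6R rose by 0.54 and NR4A3 by 0.61. Among the 4 arrays with 4OHT, replicate 1 was the highest for 13 of these 15 genes, and without it each was still called.

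Of 27 measured immediate early genes, 15 were called higher and 0 lower, with a median of 0.34 beside 0.00 for all genes. Of all genes, 2.78% were called higher and 2.75% lower. The 15 were FOSB, IER3, FOSL1, NR4A3, ARC, MAFF, FOS, MYC, KLF6, EGR3, ATF3, KLF4, KLF2, KLF10 and NR4A1. FOSL1, another AP-1 subunit, read 10.00, 10.08, 10.11 and 9.98 with vehicle and 11.21, 11.13, 11.003 and 11.05 with 4OHT, while JUN (-0.13), JUNB (0.08) and FOSL2 (-0.06) were not called. NR4A3, an orphan nuclear receptor, read 7.35, 7.21, 7.35 and 7.04 with vehicle and 8.66, 8.21, 7.9 and 8.09 with 4OHT. In both genes every array with 4OHT lay above every vehicle array. Among genes that respond to cyclic AMP and AP-1, 6 of 13 rose and 0 fell, of which FOSB, NR4A3 and NR4A1 are also on the immediate early list.

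Genes that restrain MAP kinase signalling rose as a smaller group, 6 of 15 with 0 lower and a median of 0.18. Beside this, 2.78% of all genes were called higher and 2.75% lower, with a median of -0.002. DUSP4, a nuclear phosphatase of ERK, read 7.73, 7.78, 7.93 and 7.91 with vehicle and 9.37, 9.12, 9.09 and 9.19 with 4OHT. It rose by 1.35 ± 0.11 (limma adjusted p = 3.24e-09). IER3, also on the immediate early list and a modulator of ERK and survival signalling, read 8.91, 8.90, 9.09 and 8.98 with vehicle and 10.28, 10.13, 10.12 and 10.19 with 4OHT. The cytoplasmic ERK phosphatase DUSP6 (0.42) and the nuclear DUSP5 (0.47) and DUSP2 (0.53) rose less, as did PHLDA1 (0.25). The Sprouty genes SPRY1 (-0.04), SPRY2 (-0.11) and SPRY4 (0.18) were not called. On a list of 10 genes for small GTPases and regulators of G proteins, which also holds RGCC, a regulator of cell cycle kinases, 5 rose and 0 fell. They were GEM, RGCC, RGS2 (0.50), RGS16 (0.33) and RHOB (0.24).

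Among NF-kB targets and cytokines, 7 of 23 rose and 0 fell, with a median of 0.15. For all genes the shares were 2.78% and 2.75% and the median was -0.002. The 7 were BCL2A1, the chemokines CXCL8 (0.64), CCL20 (0.61) and CXCL2 (0.59), the feedback inhibitor TNFAIP3 (0.53), RELB (0.39) and LIF (0.30). TNFAIP3 read 10.82, 10.65, 10.82 and 10.78 with vehicle and 11.29, 11.24, 11.26 and 11.42 with 4OHT. Several members are dim on these arrays: with the dimmest 40 percent of genes left out, 3 of the 12 members then tested were called. Of 9 immune cell markers, PTPRC was called higher (0.34, from a vehicle mean of 4.11) and LYZ lower (-0.30, from 4.08), both among the dimmest genes. The call of PTPRC was lost with the mean of probe sets, with only the compared groups and without vehicle replicate 2 or 4 or 4OHT replicate 2 or 4. The part of these 2 markers in this list was not tested.

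**Figure D2:**
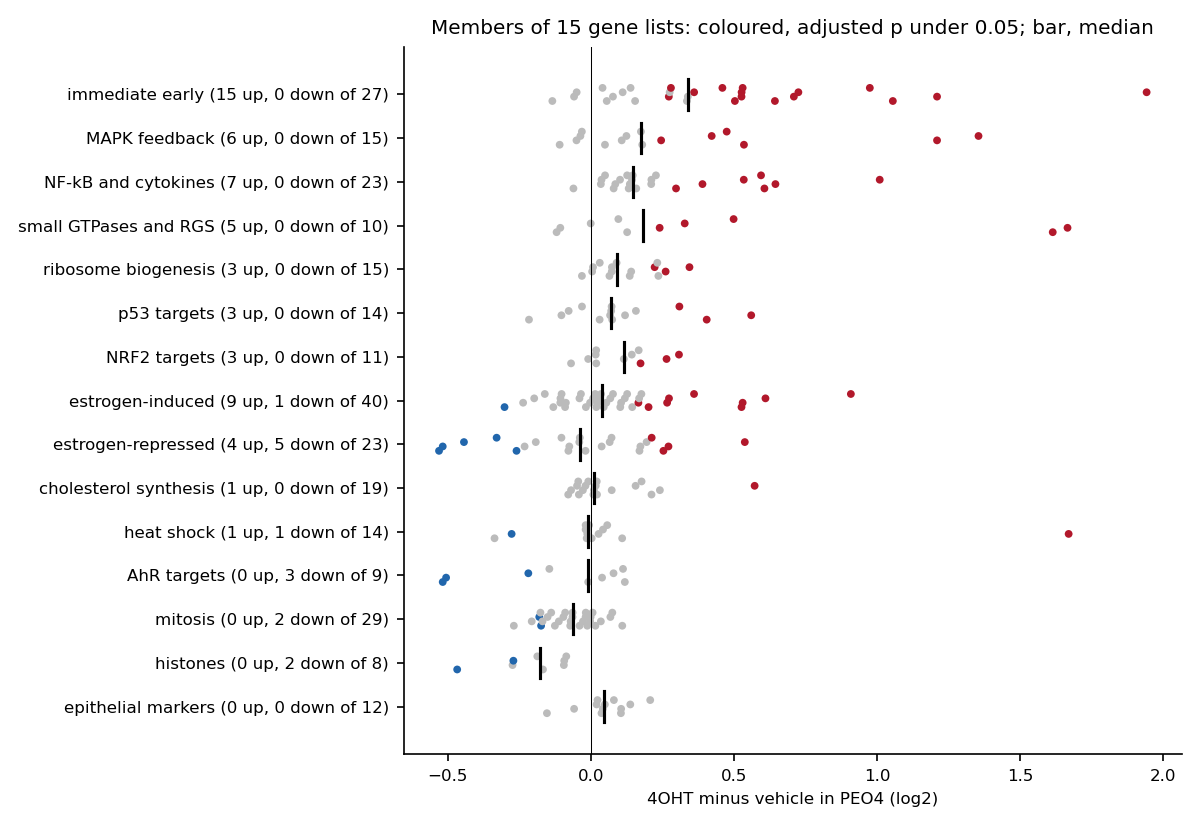
Each point is 1 measured gene of 15 lists, placed at its log2 difference between 4OHT and vehicle in PEO4; red and blue mark adjusted p under 0.05, grey the rest, and the bar is the list's median. The immediate early list lies farthest to the right (median 0.34, 15 of 27 higher), the 8 histone genes all lie below 0, and the estrogen-repressed list spreads to both sides (4 higher and 5 lower).

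The promoters of 3 raised genes are shown because each holds a match to a motif of a factor known for rapid induction. Each is the 250 bases before the most upstream start listed by RefSeq (GRCh38.p14), 5' to 3' on the gene's strand, with motif matches in capitals. HSPA6 lies at chr1:161524290-161524539 on the + strand. MAFF, which encodes a small partner of AP-1-like factors, rose by 0.71 and was chosen after its values were seen; it lies at chr22:38201744-38201993 on the + strand, and GPR183, an oxysterol receptor, at chr13:99307400-99307649 on the - strand.
HSPA6: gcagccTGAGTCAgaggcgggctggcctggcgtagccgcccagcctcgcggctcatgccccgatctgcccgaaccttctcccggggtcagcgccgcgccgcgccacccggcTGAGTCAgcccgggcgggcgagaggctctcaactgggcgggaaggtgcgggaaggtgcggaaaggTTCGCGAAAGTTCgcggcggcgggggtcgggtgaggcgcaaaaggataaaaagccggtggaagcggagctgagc
MAFF: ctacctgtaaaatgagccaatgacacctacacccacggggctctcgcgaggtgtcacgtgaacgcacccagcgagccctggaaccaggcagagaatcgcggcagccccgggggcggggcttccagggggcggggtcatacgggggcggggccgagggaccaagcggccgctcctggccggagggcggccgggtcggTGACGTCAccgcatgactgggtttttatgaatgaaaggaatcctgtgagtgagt
GPR183: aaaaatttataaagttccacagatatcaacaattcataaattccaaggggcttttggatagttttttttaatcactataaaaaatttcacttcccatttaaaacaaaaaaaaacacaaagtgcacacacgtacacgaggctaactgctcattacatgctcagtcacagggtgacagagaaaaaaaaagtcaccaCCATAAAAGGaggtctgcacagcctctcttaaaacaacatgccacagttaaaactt
The HSPA6 promoter holds the AP-1 motif TGANTCA at 244 and 139 bases before the start and, at 74, a heat shock element, searched as GAA, TTC and GAA blocks each set apart by 2 bases and read here on the other strand. The MAFF promoter holds the cyclic AMP response element TGACGTCA at 54 bases and the GPR183 promoter an SRF box at 56. Other raised genes held no match in this window, among them FOSB, RGCC, IL6R, EREG, BCL2A1, NR4A3 and RASGRP1. Lowered genes held the same motifs: the cyclic AMP element in MAF at 45 bases and the AP-1 motif in VAV3 at 116. CYP1A1, also lowered, held an SRF box at 34. Both strands were searched in the 9563 genes with a promoter entry. The AP-1 motif was in 7.11% of the 253 promoters of genes called higher, in 2.52% of the 278 of genes called lower and in 4.67% of all. The cyclic AMP element was in 4.35%, 2.52% and 2.74% of the same sets, and the SRF box in 1.58%, 1.44% and 1.23%. The heat shock element was in 1.19%, 0.719% and 0.356%, which are 3, 2 and 34 promoters. The full estrogen response element, searched as GGTCA and TGACC set apart by 3 bases, was in 0 of 253, 0 of 278 and 0.0209%. These are matches of letters in a short window and no evidence of binding.

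Of 40 measured estrogen-induced genes, 9 were called higher and 1 lower with 4OHT alone, 26 lay above 0 and the median was 0.04. For all genes the shares called were 2.78% and 2.75%. This list and the estrogen-repressed list were drawn in part from earlier results on these arrays. Both lists are no independent evidence of direction. GREB1, a receptor cofactor and one of the strongest E2 targets, read 8.64, 8.40, 8.34 and 8.65 with vehicle and 8.64, 8.38, 8.35 and 8.31 with 4OHT. These groups overlapped, and the difference was -0.09 ± 0.13 (limma adjusted p = 0.788). The mTOR inhibitor DEPTOR (-0.11, adjusted p = 0.417), the carbonic anhydrase CA12 (-0.02, 0.928), the cytokine signalling inhibitor CISH (0.02, 0.932) and the progesterone receptor PGR (-0.09, 0.6) were not called either. PGR was dim, at 3.89 with vehicle.

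The estrogen-induced genes that rose with 4OHT were RASGRP1, OTUB2, MYC, EGR3, KAZN, OSBPL3, MREG, NRIP1 and PLAT. RASGRP1, an activator of RAS, read 8.06, 8.02, 8.11 and 8.23 with vehicle and 9.16, 8.96, 8.95 and 8.98 with 4OHT. It rose by 0.91 ± 0.09 (limma adjusted p = 6.22e-08). MYC, a transcription factor of growth, read 11.18, 11.16, 11.25 and 11.20 with vehicle and 11.80, 11.70, 11.71 and 11.71 with 4OHT. KLF4, an epithelial transcription factor listed here as immediate early, read 10.21, 10.04, 10.06 and 10.13 with vehicle and 10.58, 10.55, 10.55 and 10.60 with 4OHT. None of these 3 genes overlapped between groups, and MYC rose by 0.53 and KLF4 by 0.46. The call of KLF4 was lost with the mean of its 2 probe sets (adjusted p = 0.0567), and those of KAZN (0.125) and NRIP1 (0.0876) were lost the same way. PDZK1, a scaffold protein of membrane transporters, was the listed member that fell, from 9.96, 9.98, 9.95 and 10.02 to 9.70, 9.70, 9.66 and 9.65.

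Estrogen-repressed genes went both ways, with 4 higher and 5 lower of 23 and a median of -0.04; with the mean of probe sets 2 were higher and 3 lower. The WNT inhibitor DKK1 rose from 9.13, 9.34, 9.16 and 9.0 to 9.87, 9.69, 9.53 and 9.69. TXNIP, an inhibitor of thioredoxin and glucose uptake, fell from 11.14, 11.13, 11.15 and 11.16 to 10.69, 10.65, 10.77 and 10.68, a change of -0.44 ± 0.04 (limma adjusted p = 3.24e-08). IGFBP3, which binds insulin-like growth factors, rose by 0.25 (adjusted p = 0.0274), and this call was lost without vehicle replicate 2, 4OHT replicate 1 or 4OHT replicate 2. The count of increases on this list was 2 when any one of these 3 arrays was left out.

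The receptor gene itself, ESR1, read 11.71, 11.57, 11.69 and 11.68 with vehicle and 11.50, 11.38, 11.48 and 11.41 with 4OHT. The difference of -0.22 ± 0.06 passed (limma adjusted p = 0.0171), although its 9 probe sets ranged from -0.22 to 0.17 and the mean of them was not called (adjusted p = 0.765). The call was also lost without vehicle replicate 1 or 3, or without 4OHT replicate 2 or 4. Of 10 coregulator genes, NRIP1 was called higher (0.20) and NCOA2 lower (-0.25), and both calls were lost with the mean of probe sets. NCOA2 lost its call without any of the arrays other than 4OHT replicate 1.

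The largest decreases were smaller and mixed in function. TMEM100, a membrane protein downstream of BMP receptors, read 6.63, 6.73, 6.56 and 6.74 with vehicle and 5.90, 6.01, 5.89 and 5.76 with 4OHT, a fall of -0.78 ± 0.08 (limma adjusted p = 7.34e-07). CSF2RB, the shared beta subunit of the receptors for GM-CSF, interleukin 3 and interleukin 5, read 7.14, 7.28, 6.97 and 7.09 with vehicle and 6.47, 6.36, 6.25 and 6.38 with 4OHT. Each group was narrow, and the fall was -0.75 ± 0.09 (limma adjusted p = 6.32e-06). FLVCR2, a transporter of the major facilitator family, fell from 8.47, 8.58, 8.52 and 8.52 to 8.10, 8.0, 7.97 and 7.97. The other 12 were MAF (-0.62), PRR15L (-0.58), ZNF652 (-0.57), FRY (-0.56), CASQ2 (-0.55), KIAA1107 (-0.53), GAS1 (-0.53), CYP1B1 (-0.52), N4BP2L1 (-0.52), TSPAN2 (-0.51), CYP1A1 (-0.51) and FUT9 (-0.50). All 15 had every 4OHT array below every vehicle array, where 8.72% of all genes did. They too were picked by the difference between the same arrays. With the mean of their probe sets MAF (-0.25), FRY (-0.22) and GAS1 (-0.32) fell less and were still called; 1 other probe set of FRY read 0.12. The call of N4BP2L1 was lost with the mean of its 6 probe sets (adjusted p = 0.688), that of ZNF652 without vehicle replicate 2 or 4OHT replicate 1, and that of FUT9 with all probe sets, with their mean, and without vehicle replicate 2 or 4 or any one 4OHT array.

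The cytochromes CYP1A1 and CYP1B1, which oxidise estrogens and aromatic hydrocarbons and are standard targets of the aryl hydrocarbon receptor, fell together. CYP1A1 read 8.23, 8.60, 8.27 and 8.39 with vehicle and 7.76, 7.94, 7.89 and 7.88 with 4OHT. CYP1B1 read 11.13, 11.46, 11.29 and 11.18 with vehicle and 10.65, 10.78, 10.83 and 10.74 with 4OHT. Neither pair of groups overlapped. Of 9 listed genes of that receptor, ARNT, its partner, was the third called lower (-0.22), while AHR (0.11) and TIPARP (0.12) were not called. ARNT lost its call without vehicle replicate 1, 3 or 4 or without 4OHT replicate 2 or 4. CYP1B1 had risen by 1.06 between 0 h and vehicle, so that 4OHT cells stood 0.54 above 0 h.

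Cell cycle lists moved little at 3 h. None of 29 G1/S and replication genes was called (limma), with a median of -0.02. Of 29 mitotic genes, CENPE (-0.18) and BUB1B (-0.17), both of the spindle checkpoint and kinetochore, were called lower, with a list median of -0.06 and 6 of 29 above 0; leaving out any 1 array left 0 or 1 call, and the other settings gave 1 to 7, all lower. All 8 measured histone genes were below 0 (median -0.18), with H2AC6 (-0.47) and H4C8 (-0.27) called. Without the dimmest 40 percent of genes, 0 of the 4 that remain were called. Of all genes, 50.9% lay below 0, 2.75% were called lower and 2.78% higher. The cyclin kinase inhibitor CDKN1A rose by 0.56, from 9.76, 9.96, 9.90 and 9.89 to 10.54, 10.35, 10.38 and 10.47. With the death receptor TNFRSF10B (0.40) and the kinase PLK3 (0.31) it made 3 of 14 p53 targets, while MDM2 (0.16) was not called.

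Metabolic and stress lists moved in few members. INSIG1, which holds back cholesterol synthesis, was the called gene among 19 of that pathway (0.57), and read 10.13, 9.74, 10.08 and 10.04 with vehicle and 10.68, 10.57, 10.60 and 10.42 with 4OHT. In the fits with 1033 and 1055 calls, 5 of the 19 were called higher. GCLM (0.31), GCLC (0.26) and TXNRD1 (0.17), which make glutathione and reduce thioredoxin, rose among 11 NRF2 targets, while HMOX1 (0.02) did not pass. The count of this list was 2 without vehicle replicate 3, 4OHT replicate 1 or 4OHT replicate 2. ATF3 (0.50) and CEBPG (0.27) rose and DDIT4 (-0.23) fell among 22 genes of the unfolded protein and integrated stress responses, whose markers HSPA5 (-0.02) and DDIT3 (0.04) were not called. None of 22 interferon response genes was called by limma, and their median was 0.00.

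IGFBP1, a secreted binder of insulin-like growth factors, rose from 7.32, 7.30, 7.35 and 7.15 to 8.24, 8.04, 7.79 and 7.52, with IRS1 (0.27) and IGFBP3 the other increases among 15 genes of that axis. Among 13 clock genes, BMAL1, the activator of the clock, rose (0.40, or 0.23 with the mean of probe sets), and the repressors BHLHE41 (-0.43) and CRY2 (-0.24) fell. BMAL1 had fallen by 0.29 from 0 h to vehicle, so that 4OHT cells stood 0.11 above 0 h (adjusted p = 0.312).

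Untreated cells at 0 h gave another baseline, although 0 h replicate 4 had an actin gap of 2.28, a sign of lower RNA quality. Against 0 h, all 15 leading increases were called higher in 4OHT cells, by 1.06 (IL6R) to 2.60 (RGCC), where 7.87% of all genes were called higher. Vehicle cells were themselves called higher than 0 h cells for 10 of these 15 genes, where the share over all genes was 3.74%. FOSB (0.03), GEM (0.08), HSPA6 (-0.08) and IL6R (-0.04) differed little between 0 h and vehicle, while RGCC (0.99), GPR183 (0.88) and DUSP4 (0.73) rose with vehicle. These 2 comparisons share arrays, so their values are given side by side only.

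**Figure D3:**
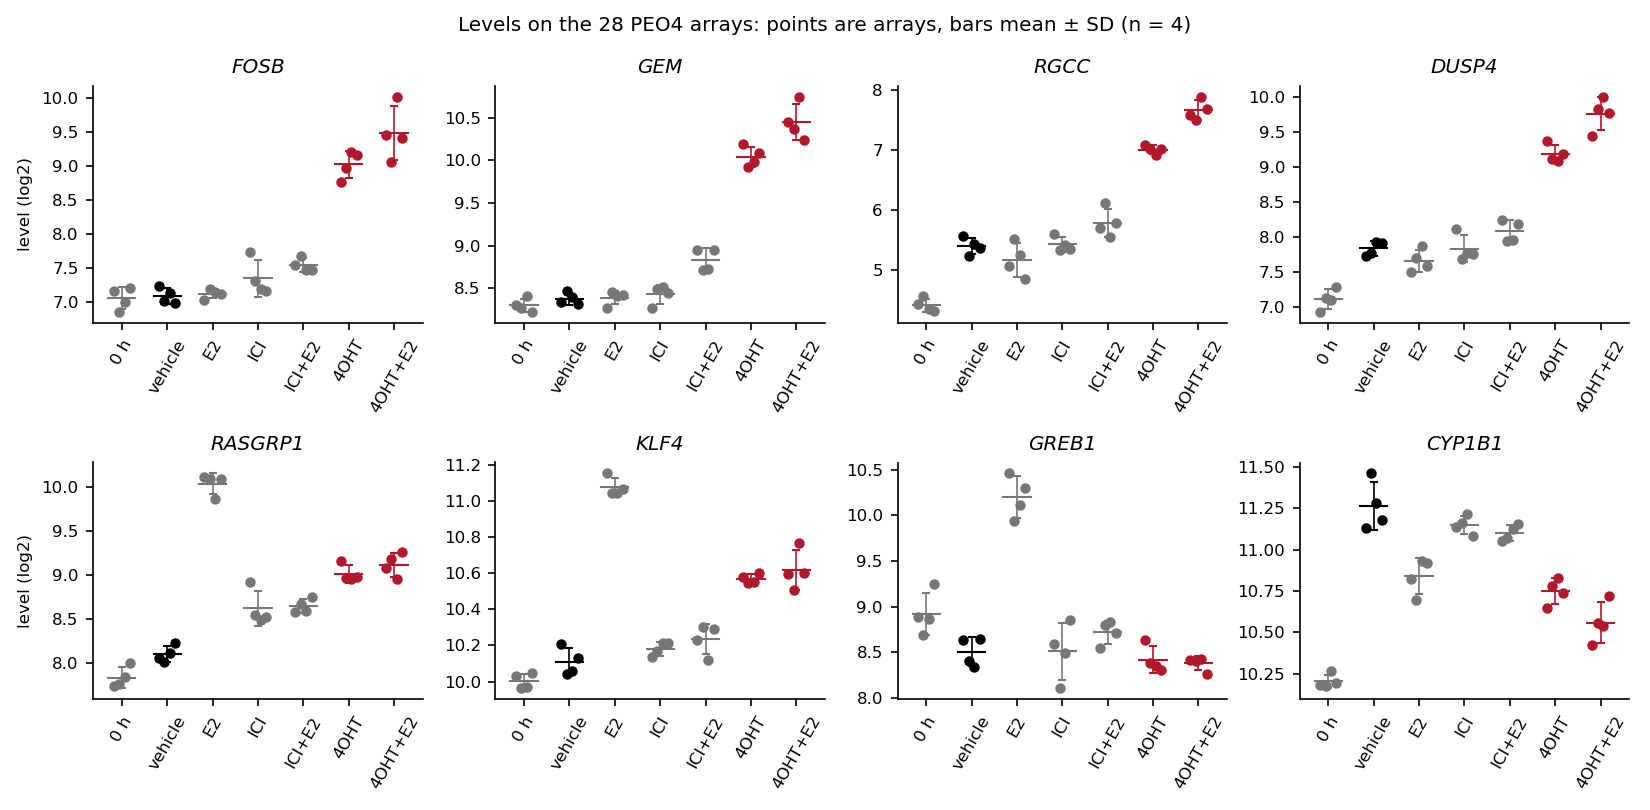
Log2 levels of 8 genes on the 28 PEO4 arrays, by treatment group; points are arrays and bars the mean ± SD (n = 4). FOSB, GEM, RGCC and DUSP4 are high in both 4OHT groups, RASGRP1 and KLF4 with 4OHT lie between vehicle and E2, and GREB1 is high with E2 alone.

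Set against ICI at the same dose and time, 4OHT differed in 279 genes (2.33%), with 150 higher (1.25%) and 129 lower (1.08%). All 15 leading increases were higher with 4OHT than with ICI, by 0.39 (RASGRP1) to 1.68 (FOSB). The same 4OHT arrays picked these genes, so this count and that of the leading decreases below are no independent evidence. GEM differed by 1.61 (95% interval 1.44 to 1.79), RGCC by 1.58 (1.35 to 1.82), HSPA6 by 1.52 (1.24 to 1.81) and DUSP4 by 1.36 (1.14 to 1.58). ICI against vehicle changed 19 genes (0.159%), and for FOSB (0.26), GEM (0.05), RGCC (0.03) and DUSP4 (0.00) it did not pass. Of the 15 leading increases, 1 was called higher with ICI, RASGRP1 (0.52, limma adjusted p = 0.00882). RASGRP1 read 8.92 on ICI replicate 1, 8.54, 8.49 and 8.52 on the other ICI arrays, and 8.02 to 8.23 with vehicle. With E2 present, FOSB read 7.47 to 7.68 with ICI and 7.03 to 7.18 without it. GEM read 8.71 to 8.95 and 8.27 to 8.45 in the same order. RGCC read 5.56 to 6.11 and 4.85 to 5.52, and DUSP4 7.95 to 8.25 and 7.51 to 7.87. The effect of ICI on top of E2 was not tested. At an unadjusted p under 0.05 ICI against vehicle had 2097 genes, near the 2254 of 4OHT against vehicle. The ICI group holds an array of poor RNA quality, ICI replicate 1, which had the widest actin gap of the PEO4 arrays. Without it, a setting chosen after seeing the data, 6 genes were called, 1275 had an unadjusted p under 0.05 and FOSB differed by 0.13. Of the 15 leading decreases, 8 were also lower with 4OHT than with ICI, led by TMEM100 (-0.82) and CSF2RB (-0.60). TXNIP (-0.58), the growth factor receptor FGFR2 (-0.51) and CYP1A1 (-0.47) were lower too. The count is unstable: it was 552 without ICI replicate 4, 163 without 4OHT replicate 1, 169 without 4OHT replicate 2, 82 when the fit held only these 2 groups and 2367 with array weights. Without the ICI array of poor RNA quality it was 200, with 135 higher and 65 lower, and all 15 leading increases and 7 of the leading decreases were still called.

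For some genes the antagonists were not called different. TSPAN2 was lower with 4OHT (-0.51) and with ICI (-0.55) than on the same vehicle arrays, and the difference between the drugs was 0.04 (95% interval -0.17 to 0.24). KAZN, a cytoskeletal protein of cell junctions, was 0.36 above vehicle with 4OHT and 0.30 with ICI, a difference of 0.06 (-0.07 to 0.18). IGFBP3 differed by 0.02 between the drugs (-0.12 to 0.17), GREB1 by -0.09 (-0.35 to 0.17) and PGR by 0.05 (-0.11 to 0.21). IGFBP3 was called higher with 4OHT than with ICI under array weights, by 0.14 (limma adjusted p = 0.0262). ESR1 was lower with 4OHT than with ICI by -0.30 (-0.42 to -0.19, limma adjusted p = 0.0018). That value is from the brightest of its 9 probe sets, and the mean of the 9 was not called against vehicle. Among the 199 genes called higher by E2 against vehicle (1.66%), 24 were higher and 4 lower with 4OHT than with ICI. Of all genes, 1.25% were higher and 1.08% lower. Of the 199 genes, 61.3% lay above 0 where 38.2% of all genes did. The medians were 0.03 for these genes and -0.03 for all genes. Without ICI replicate 1 the shares above 0 were 68.8% and 44.1%. Among the 55 genes called lower by E2, 4 were higher and 14 lower with 4OHT than with ICI, and 32.7% lay above 0.

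The response to 4OHT was also measured in the presence of 1 nM E2, on arrays that share none with the comparison against vehicle. 4OHT with E2 differed from E2 alone in 686 genes (5.73%), with 428 higher (3.58%) and 258 lower (2.16%). Without 4OHT with E2 replicate 4, whose actin gap was 1.74, 580 genes were called. Of the 332 genes raised by 4OHT alone, 169 (50.9%, or 39.5% of the 428) were also higher here. Of the 329 lowered, 76 (23.1%, or 29.5% of the 258) were also lower. Across all genes the differences in the 2 comparisons had a correlation of 0.577, given as a description since genes are not independent. The 5 highest were RGCC, which rose by 2.50, FOSB by 2.38, DUSP4 by 2.10, GEM by 2.06 and NR4A3 by 1.97, all among the leading increases with 4OHT alone. The sizes with and without E2 were not tested against each other. At the other end lay GREB1 (-1.82), DEPTOR (-1.32), the secreted protein OLFML3 (-1.17) and CASQ2 (-0.96), of which CASQ2 was also lower with 4OHT alone.

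A group of 9 genes was called in opposite directions: higher with 4OHT alone, lower with 4OHT added to E2. They were RASGRP1, KLF4, MYC, KAZN, MYBL1, PLAT, HES1, WDR3 and SYBU. All 9 were called higher by E2 against vehicle, which uses arrays of both comparisons. RASGRP1 (0.39), KLF4 (0.39) and MYC (0.71) were also called higher with 4OHT than with ICI. HES1, KAZN, MYBL1, PLAT, SYBU and WDR3 were not called different between the drugs (limma adjusted p 0.44 to 0.93). RASGRP1 had means of 8.10 ± 0.09 with vehicle, 9.01 ± 0.10 with 4OHT, 9.12 ± 0.14 with 4OHT and E2 and 10.04 ± 0.12 with E2 (SD, n = 4). KLF4 had 10.11 ± 0.08, 10.57 ± 0.03, 10.62 ± 0.11 and 11.08 ± 0.05 in the same order, and MYC had means of 11.20, 11.73, 11.73 and 12.16. For these 3 genes both 4OHT groups lay between vehicle and E2. GREB1 had 8.51 ± 0.16 with vehicle, 8.42 ± 0.15 with 4OHT, 8.38 ± 0.08 with both and 10.20 ± 0.23 with E2, and CA12 had 7.54, 7.52, 7.62 and 8.23. In these genes the 4OHT groups lay beside vehicle.

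**Figure D4:**
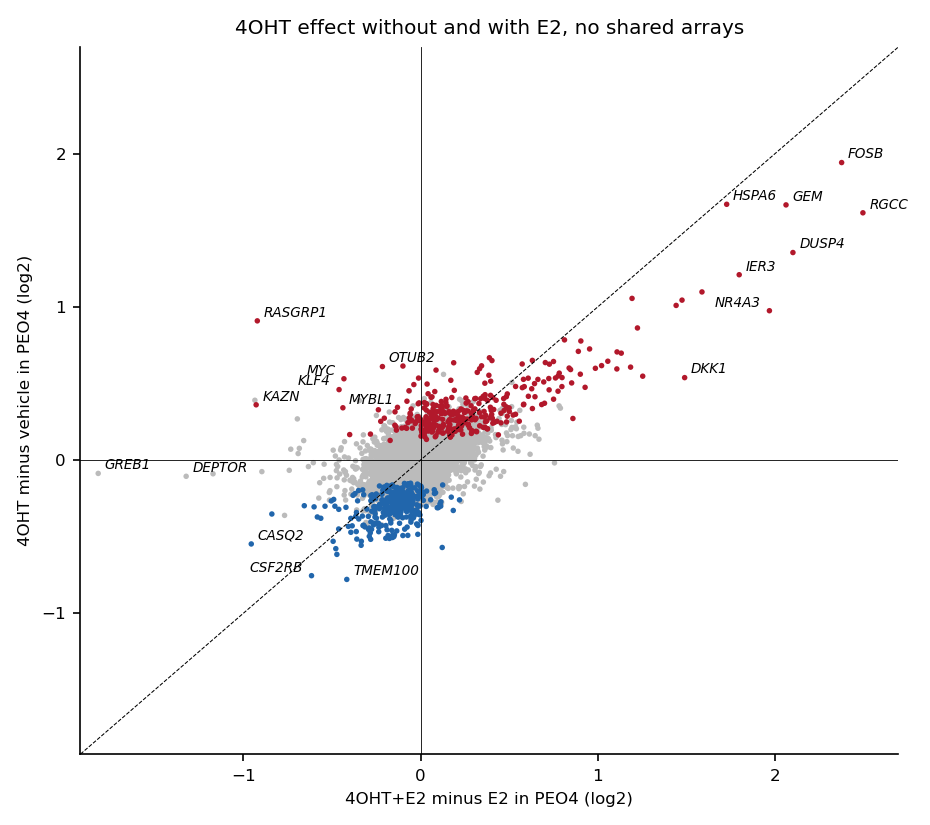
Each point is 1 of 11963 genes, with the log2 difference 4OHT with E2 minus E2 on the horizontal axis and 4OHT minus vehicle on the vertical axis, both in PEO4; red and blue mark genes called with 4OHT alone and the dashed line is equality. FOSB, GEM, RGCC and DUSP4 lie high on both axes, RASGRP1, MYC, KLF4, KAZN and MYBL1 lie above 0 on one and below 0 on the other, and GREB1 (-1.82 and -0.09) is low on the horizontal axis alone.

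PEO1 cells given 1 µM 4OHT for 3 h changed 808 genes (6.75%), with 230 higher (1.92%) and 578 lower (4.83%). Over all genes the median change in PEO1 was -0.032, and 63.4% lay below 0. Of the 332 genes raised in PEO4, 84 (25.3%, or 36.5% of the 230) were higher in PEO1 too, and of the 329 lowered, 65 (19.8%, or 11.2% of the 578) were lower. Of the 15 leading increases, 13 were also called higher in PEO1, among them HSPA6 (1.63), FOSB (1.62), BCL2A1 (1.47), NR4A3 (1.17) and EREG (1.14). RASGRP1 (-0.13) and GPR183 (0.14) were not called there. Across all genes the differences in the 2 lines had a correlation of 0.343, as a description.

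The difference of the 2 responses was tested in 1 fit over 56 arrays. A constant offset between lines cancels in it, but a shift between the arrays of 1 line does not. Over all genes the median change was -0.002 in PEO4 and -0.032 in PEO1, and the median difference was 0.031. It was called for 151 genes (1.26%), with 116 higher in PEO4 (0.97%) and 35 lower (0.293%). With quantile normalization the split was 87 and 58 and the median difference over all genes was 0.0016. The response was larger in PEO4 for RGCC (by 1.09, limma adjusted p = 9.74e-05), RASGRP1 (1.03, 1.94e-08), the clotting initiator F3 (0.82, 1.96e-05), DUSP4 (0.82, 0.000104) and the deubiquitinase OTUB2 (0.80, 0.000176). In RGCC and DUSP4 both lines rose, by 1.61 and 0.53 and by 1.35 and 0.54, while F3 rose in PEO4 (0.63) and was -0.19 in PEO1. The response was lower in PEO4 for HMOX1 (-0.67), CSF2RB (-0.67), FRMD4B (-0.65), CD1D (-0.64) and PDE4D (-0.61). HMOX1, which breaks down heme, rose in PEO1 (0.69) and not in PEO4 (0.02). FOSB (0.32, adjusted p = 0.62) and HSPA6 (0.04, 0.96) were not called different between the lines.

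Estrogen targets were among the genes whose response differed. GREB1 fell in PEO1 (-0.83), from 5.77 ± 0.20 to 4.93 ± 0.11 (SD, n = 4), and did not pass in PEO4 (-0.09), a difference of 0.75 (adjusted p = 0.0096). MYC rose in PEO4 (0.53) and fell in PEO1 (-0.14), a difference of 0.67. Both directions were called for 10 genes in all: HES1, IGFBP3, KAZN, MYBL1, MYC, PLAT, TFCP2 and TGFBR2 were higher in PEO4 and lower in PEO1, and NAB1 and TSC22D1 the reverse. The count of 151 was 77 without PEO1 4OHT replicate C, 93 without PEO1 vehicle replicate C, 99 without PEO1 vehicle replicate B or PEO4 vehicle replicate 2, 294 without the PEO4 arrays 0 h replicate 4 and ICI replicate 1, and 473 with array weights.

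**Figure D5:**
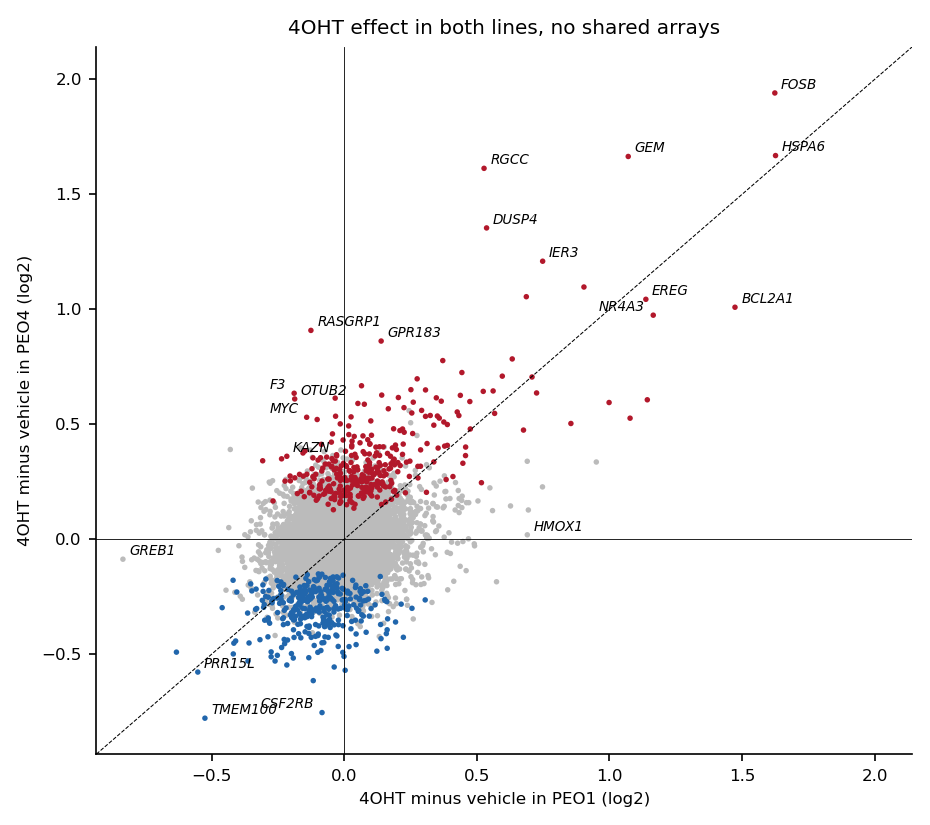
Each point is 1 of 11963 genes, with the log2 difference between 4OHT and vehicle in PEO1 on the horizontal axis and in PEO4 on the vertical axis; red and blue mark genes called in PEO4 and the dashed line is equality. HSPA6 lies near the line (1.63 and 1.67), RGCC and DUSP4 lie well above it, and RASGRP1 is high on the PEO4 axis alone.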

How the data were processed

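The deposited values are log2 expression levels made by RMA, per the submitters' processing notes, for which the sources used here give no version. Per the labels, spin columns were used to isolate RNA, which was then amplified and labelled. RMA values hold no detection calls and no read depth, so precision is limited by how many arrays there are. Of 22277 probe sets, 62 controls were set aside; 19064 had 1 gene symbol, 1043 several and 2108 none, and those with 1 symbol were tested. Each of 4310 genes with several probe sets was represented by its brightest one on average over the 56 arrays, which left 11963 genes.

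The 28 PEO4 arrays were fitted by limma (version 3.58.1, under R 4.3.3) using a mean for each group, which leaves 21 residual degrees of freedom, and the scripts were tested on simulated data. Intervals are 95% intervals of limma's moderated statistic. The PEO1 comparison was fitted in the same way over the 28 PEO1 arrays. The difference between lines was fitted over 56 arrays, and the lines may have been normalized apart. The members, gene lists and tests were chosen with earlier results of these data known. By rule the text names the 15 called genes that changed most each way, 5 each way for the other comparisons, up to 4 called members of each list by smallest adjusted p, and 12 set genes of the estrogen and early response; other members are named where a count is listed in full or was singled out after its values were seen. Dixon's critical value for 4 arrays was 0.829. Deviations of same-numbered vehicle and 4OHT arrays correlated at 0.07, 0.11, 0.10 and -0.13, so the numbers were not taken as pairs. Alternatives tried were other variance settings, filters, probe set rules, quantile normalization, a replicate block, array weights, fewer groups and leaving out arrays.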

Additional observations from a re-analysis of the deposited data

Results flagged for a closer look

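Among 186 groups of 4 arrays tested for the named genes, 14 held 1 array far from the other 3, and chance gives about 1 in 20. On the 4OHT arrays, replicate 1 stood above the others for RASGRP1 (9.16), TXNRD1 (11.77), IRS1 (10.95), RHOB (11.05) and MYC (11.80). Replicate 4 stood below them for PRR15L (7.15) and BCL2L1 (10.61), and replicate 2 above them for CRY2 (7.79). On the vehicle arrays, replicate 2 stood above the others for MAF (7.93) and GAS1 (7.61) and below them for NOP16 (11.21), IGFBP3 (9.87) and NDRG1 (11.48), and replicate 1 stood above them for NRIP1 (10.68). In none of these genes did that array reach the other group.

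The response to 4OHT differed between PEO4 and PEO1 for 25 of the named genes by limma's test of the difference. Of all genes, 1.26% were called. RGCC, RASGRP1, F3, DUSP4, OTUB2, HMOX1, CSF2RB, FRMD4B, CD1D and PDE4D were named by this same test, so their calls were fixed by the choice. Others were named for a large change in PEO4, which enters the same difference. The count is therefore no independent evidence. It was higher in PEO4 for RGCC (1.09), RASGRP1 (1.03), F3 (0.82), DUSP4 (0.82), OTUB2 (0.80), GREB1 (0.75), GPR183 (0.72), MYC (0.67), GEM (0.59), KAZN (0.58), DUSP6 (0.47), IGFBP3 (0.46), CISH (0.39), PLK3 (0.39), FN1 (0.32), NOP16 (0.32), HK2 (0.31) and CEBPG (0.27). It was lower in PEO4 for CSF2RB (-0.67), HMOX1 (-0.67), FRMD4B (-0.65), CD1D (-0.64), PDE4D (-0.61), FRY (-0.52) and N4BP2L1 (-0.38).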

How the results depend on the processing

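Of the 88 named genes called between 4OHT and vehicle, 57 were called under every alternative that was run and tested them, and the others lost the call in at least 1. With array weights the counts were 1977 for 4OHT against vehicle, 2367 against ICI, 1474 in the presence of E2 and 473 for the difference between lines, where the main counts were 661, 279, 686 and 151. With only the compared groups, 1033 genes were called against vehicle and 82 against ICI; without PEO4 0 h replicate 4 and ICI replicate 1, 1055 were called against vehicle and 294 for the difference between lines. The cause was not tested. Leaving out 1 array gave 418 to 582 calls against vehicle, 163 to 552 against ICI, 528 to 717 with E2 and 77 to 198 for the difference between lines. The replicate block gave 675, 298, 688 and 171 calls in these 4 comparisons; the numbers are not taken as pairs.

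Values near 0 changed sign. CA12 against vehicle was 0.033 with the mean of probe sets and 0.0081 with quantile normalization, and -0.048 to 0.017 with 1 array left out. The difference between lines was 0.0019 for ESR1 with the mean of probe sets, and 0.0073 for PGR with quantile normalization and 0.081 with array weights. With 1 array left out, CISH against vehicle ranged from -0.028 to 0.070. Against ICI, IGFBP3 ranged from -0.030 to 0.093, PGR from -0.010 to 0.095 and GREB1 from -0.22 to 0.026. PGR in the difference between lines ranged from -0.067 to 0.055.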

Other observations

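Genes with a zinc finger symbol (ZNF, ZFP, ZSCAN or ZKSCAN), a group singled out after its values were seen, leaned lower with 4OHT alone. Of 258 measured, 16 were called lower (6.2%, where 2.75% of all genes were) and 5 higher (1.94%, where 2.78% were), and 64.3% lay below 0 where 50.9% of all genes did. Many such genes encode DNA-binding proteins. No test was made of this group.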
